A study of Rattus norvegicus with 6 samples.

Results

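Endothelial and blood-brain barrier genes were described in the injured rat spinal cord as a set of 10 genes chosen by symbol from the 33455 genes of the deposited count table. All 10 were found, each in 1 row, and all 10 were among the 17066 genes that passed the low-count filter. They comprise 3 barrier genes (Cldn5, Ocln and Mfsd2a), 6 general endothelial genes (Pecam1, Cdh5, Kdr, Flt1, Tek and Vwf) and 1 leaky-vessel gene (Plvap). Wild-type rats with a contusion at T9 received ultrasound together with either a piezoelectric gel (Piezo Gel+US, n = 3) or the gel used for comparison (Gel+US, n = 3). Both groups thus carried the injury, a gel and the ultrasound, which was given at 100 Hz and 1.0 W/cm2 for 10 min a day over 4 weeks. Each library came from about 5 mm3 of tissue at the lesion centre, and the labels call the libraries biological replicates. Strain, sex, age and day of collection are not stated in the labels. No uninjured cord is part of the comparison.

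The vessels of the brain and spinal cord are lined by endothelial cells that are sealed to each other by tight junctions and that carry little material across in vesicles. Claudin-5 and occludin are strands of those junctions, and Mfsd2a, a lipid transporter, keeps vesicle traffic low. Plvap forms the diaphragms of fenestrae and caveolae in vessels outside the barrier, and in the central nervous system it is a marker of vessels that have lost barrier properties. Growth and maintenance of the vessels depend on the VEGF receptors encoded by Kdr and Flt1 and on Tek, the receptor for angiopoietins, while spinal cord contusion opens the barrier around the lesion.

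The regulatory sequence of 3 members is shown first. They are Kdr, whose groups did not overlap, Cldn5, the member of highest level per kilobase, and Plvap, which varied most between libraries. Their profiles were not all unlike, since Kdr was the member nearest to Cldn5 over the 6 libraries. The RefSeq promoter table of the GRCr8 build, matched by symbol, held 5 of the 10 members. The lines give the 250 bases before the gene start, 5′ to 3′ along the gene, at chr14:32571813-32572062 on the plus strand for Kdr, chr11:95718599-95718848 on the minus strand for Cldn5 and chr16:18231280-18231529 on the minus strand for Plvap. Capitals mark GGAAG, a core letter run bound by ETS factors such as Erg and Fli1, TATAAA, the TATA box, and ACAAT, a core run of SOX factors, on either strand. No 2 marked matches overlap.
Kdr: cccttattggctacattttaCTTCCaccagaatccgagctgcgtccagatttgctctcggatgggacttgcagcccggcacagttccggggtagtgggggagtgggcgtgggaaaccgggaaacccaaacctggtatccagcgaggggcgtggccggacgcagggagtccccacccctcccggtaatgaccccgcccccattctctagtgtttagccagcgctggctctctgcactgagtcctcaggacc
Cldn5: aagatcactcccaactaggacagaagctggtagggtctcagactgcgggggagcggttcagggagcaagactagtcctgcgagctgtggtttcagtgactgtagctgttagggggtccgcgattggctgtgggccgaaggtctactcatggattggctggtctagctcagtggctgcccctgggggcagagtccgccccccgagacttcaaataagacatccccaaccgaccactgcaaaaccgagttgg
Plvap: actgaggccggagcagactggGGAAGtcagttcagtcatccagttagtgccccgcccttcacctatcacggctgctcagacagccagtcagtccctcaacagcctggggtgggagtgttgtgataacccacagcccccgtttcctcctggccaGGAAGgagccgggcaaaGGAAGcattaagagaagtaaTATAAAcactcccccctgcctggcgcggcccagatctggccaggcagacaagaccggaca

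GGAAG occurred once in the Kdr window and 3 times in the Plvap window, and TATAAA once in that of Plvap. None of these letter runs occurred in the Cldn5 window, and ACAAT in none of the 5 windows. Among 33469 rat promoter windows of the same length, 63.3% held GGAAG, 12.9% TATAAA and 30.0% ACAAT on either strand. GGAAG was thus in 4 of the 5 member windows where it was in most windows overall. A match is a run of letters and does not show that a factor binds there.

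Cldn5 was by far the most abundant member per length of transcript. Levels are CPM, counts relative to a library size that was adjusted by the trimmed mean of M-values (TMM), and were divided by gene length in kilobases only to compare genes. Cldn5 averaged 127.8 ± 43.9 CPM per kilobase (SD, n = 6 libraries) and lay above the next gene in 6 of 6 libraries. Vwf, the clotting glycoprotein stored in endothelial granules, averaged 33.1 ± 9.87 CPM per kilobase and Mfsd2a 30.1 ± 12.3, with Vwf above Mfsd2a in 3 of 6 libraries. Flt1 followed with 21.5 ± 5.70, Tek with 17.7 ± 6.63, Pecam1 with 13.5 ± 5.35, Ocln with 13.1 ± 3.54 and Cdh5 with 12.6 ± 3.87 CPM per kilobase. Plvap averaged 6.89 ± 9.29 and Kdr 5.46 ± 1.73 CPM per kilobase, and Plvap was above Kdr in 2 of 6 libraries. From Vwf downward each mean difference between neighbours was smaller than the SD of that difference over the 6 libraries. Among neighbours, only the step from Cldn5 to Vwf was thus larger than its spread. Genes farther apart in the order could be separate, as were Vwf at 20.6 to 45.1 and Kdr at 3.7 to 8.6 CPM per kilobase.

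None of the 10 members passed the test between groups. By the edgeR quasi-likelihood test with Benjamini-Hochberg adjustment 0 of 10 were called, against a background of 0.0% of the 17066 genes tested, and the smallest adjusted p among members was 0.994. At an unadjusted p below 0.05 there was 1 member, Kdr, against 2.1% of all genes, or 359 genes. DESeq2 also called 0 genes, with 652 at that level among the 23195 genes to which it gave a p. Of the members Kdr alone was among them, and Plvap had no DESeq2 p. Of the members 3 had a fold change above 0 and 7 below it, with a median log2 fold change of -0.088, against -0.021 over all genes tested. Of those 17066 genes 8044 were above 0 and 9022 below. The groups overlapped for every member except Kdr. It was higher in Piezo Gel+US, and 4.08% of all genes tested were without overlap in that direction. The share of all genes in the other direction was not computed. In bulk tissue, fewer endothelial cells and less transcript per endothelial cell cannot be told apart.

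**Figure D1:**
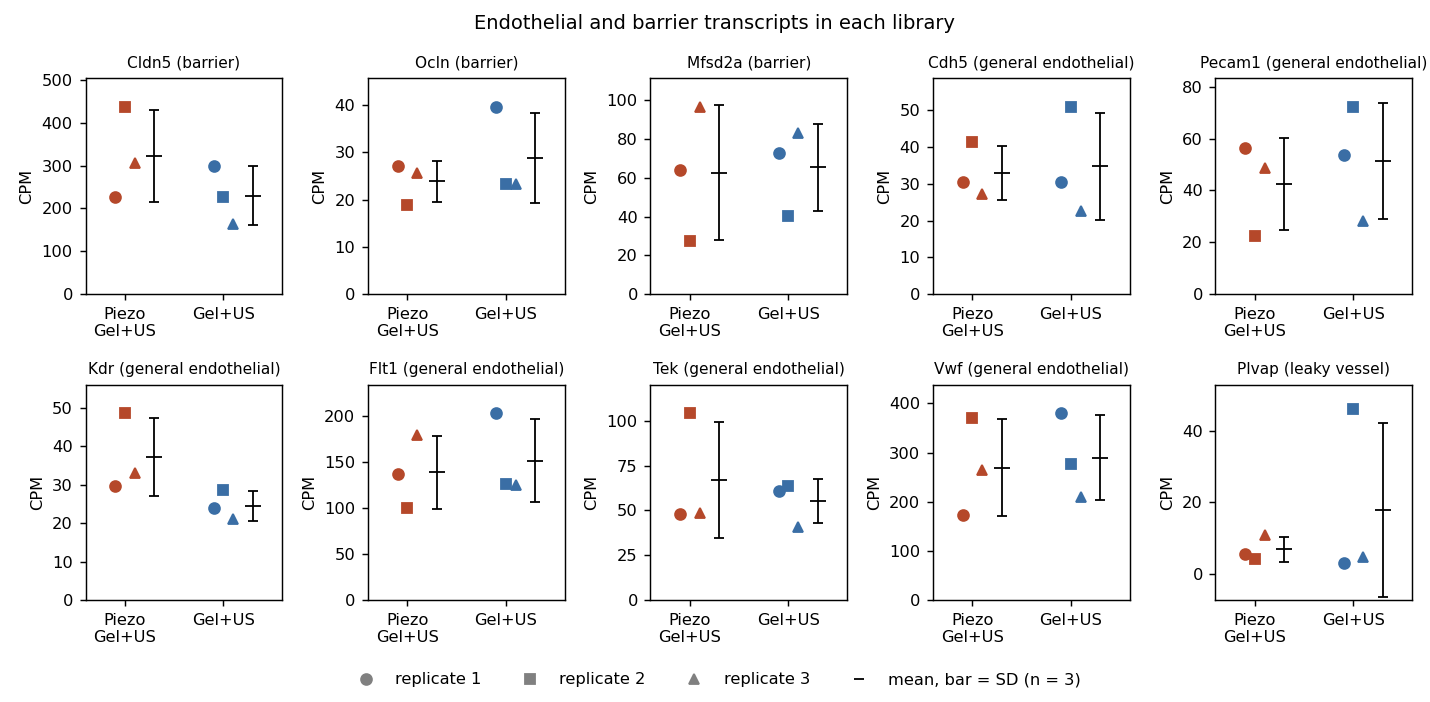
CPM of each of the 10 genes (vertical axes, each with its own scale) in the 3 Piezo Gel+US and 3 Gel+US libraries, with marker shape giving the replicate and the bar the mean ± SD (n = 3). Kdr is the gene whose groups do not overlap, with 29.7 to 48.7 CPM in Piezo Gel+US and 21.0 to 28.6 CPM in Gel+US, and Plvap reaches 46.0 CPM in Gel+US replicate 2 alone.

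Among barrier genes, Cldn5 measured 225.9, 437.6 and 305.2 CPM in Piezo Gel+US replicates 1 to 3, against 299.7, 226.5 and 163.6 CPM in Gel+US. The groups overlapped, and the highest library, Piezo Gel+US replicate 2, and the lowest, that of Gel+US numbered 3, lay 2.67-fold apart. The means were 322.9 ± 107.0 CPM in Piezo Gel+US and 229.9 ± 68.1 CPM in Gel+US (SD, n = 3 each), a log2 fold change of 0.49 with a 95% interval of -0.30 to 1.27 (adjusted p = 0.994). Without Piezo Gel+US replicate 2 the log2 fold change was 0.20, and without Gel+US replicate 3 it was 0.29.

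Occludin ran at a lower level and in the other direction. Ocln measured 27.1, 19.0 and 25.7 CPM in Piezo Gel+US, against 39.7, 23.2 and 23.4 CPM in Gel+US. Gel+US replicate 1 stood above the other 5 libraries, which lay between 19.0 and 27.1 CPM. The log2 fold change was -0.27 (95% interval -0.93 to 0.40) and came to 0.038 without Gel+US replicate 1.

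Mfsd2a, the transporter that marks endothelium with a closed barrier, varied 3.55-fold between libraries and hardly at all between group means. It measured 64.0, 27.3 and 96.7 CPM in Piezo Gel+US, against 72.7, 40.2 and 83.1 CPM in Gel+US. In each group replicate 2 was the lowest and replicate 3 the highest library. The means of 62.7 ± 34.7 and 65.3 ± 22.4 CPM in Piezo Gel+US and Gel+US gave a log2 fold change of -0.061, with an interval of -1.21 to 1.09. An unnamed non-coding RNA gene overlaps Mfsd2a on the opposite strand and had 23 to 108 counts per library, against 542 to 1869 for Mfsd2a. No source used here says whether reads were counted by strand.

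The cadherin and adhesion genes that define endothelium had groups that overlapped. Cdh5, the cadherin of endothelial adherens junctions, measured 30.4, 41.4 and 27.2 CPM in Piezo Gel+US, against 30.5, 51.0 and 22.7 CPM in Gel+US. Replicate 2 was again apart in both groups, here as the highest, and the log2 fold change was -0.074 (95% interval -0.87 to 0.72). Pecam1, an adhesion molecule of endothelial junctions that platelets and leukocytes also carry, measured 56.5, 22.5 and 48.5 CPM in Piezo Gel+US, against 53.6, 72.3 and 28.1 CPM in Gel+US. Its lowest library was Piezo Gel+US replicate 2 and its highest Gel+US replicate 2, with a log2 fold change of -0.27 (95% interval -1.34 to 0.80). Both genes turned to a higher mean in Piezo Gel+US without Gel+US replicate 2, with log2 fold changes of 0.30 and 0.054 for Cdh5 and Pecam1.

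Platelet and leukocyte transcripts varied between libraries as well, so Pecam1 was set beside them. The 6 platelet markers found, of 8 listed, summed to 86.9 to 235.5 CPM in Piezo Gel+US and 30.8 to 266.8 CPM in Gel+US, with Gel+US replicate 3 at the bottom and replicate 2 of the same group at the top. Ptprc, the common leukocyte antigen, was 135.2, 26.4 and 59.9 CPM in Piezo Gel+US, against 58.9, 197.8 and 20.6 CPM in Gel+US. The 2 libraries with least Ptprc were those with least Pecam1, and the library with most Ptprc had most Pecam1. The part of platelets and leukocytes in the Pecam1 level was not tested.

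Of the VEGF receptors, Kdr had groups that did not overlap and Flt1 had groups that did. Kdr, the main signalling receptor for VEGF-A, measured 29.7, 48.7 and 33.2 CPM in Piezo Gel+US, against 24.0, 28.6 and 21.0 CPM in Gel+US. Each Piezo Gel+US library was above each Gel+US library, which held for 1 of the 10 members in this direction and for 4.08% of all genes tested. The means were 37.2 ± 10.1 CPM in Piezo Gel+US and 24.5 ± 3.83 CPM in Gel+US (SD, n = 3 each). The log2 fold change of 0.60 (95% interval 0.018 to 1.19) had an unadjusted p of 0.0450 and an adjusted p of 0.994, so the gene was not called, and it ranked at place 309 of 17066 by p. Leaving out Piezo Gel+US replicate 2 gave 0.35 for Kdr and leaving out replicate 1 of that group gave 0.72, the extremes of the 6 such fits.

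Flt1, the VEGF receptor that also exists as a soluble decoy, measured 136.9, 100.9 and 180.0 CPM in Piezo Gel+US, against 204.0, 126.1 and 125.1 CPM in Gel+US. The groups overlapped throughout, with the lowest library in Piezo Gel+US and the highest in Gel+US. The log2 fold change was -0.12 (95% interval -0.83 to 0.59), and it came to 0.15 without Gel+US replicate 1 and to 0.059 without Piezo Gel+US replicate 2.

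Tek, the angiopoietin receptor, rested on a single library. It measured 48.0, 104.4 and 48.6 CPM in Piezo Gel+US, against 60.8, 63.6 and 41.0 CPM in Gel+US. Piezo Gel+US replicate 2 was the highest of the 6, while the other 2 Piezo Gel+US libraries were within the range of Gel+US. The log2 fold change of 0.28 (95% interval -0.58 to 1.14) came to -0.20 without that library. Vwf measured 174.1, 370.4 and 264.2 CPM in Piezo Gel+US, against 381.1, 277.3 and 209.7 CPM in Gel+US. Its log2 fold change was -0.10 (95% interval -0.93 to 0.72), and came to 0.15 without Gel+US replicate 1 and to 0.12 without Piezo Gel+US replicate 1.

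Plvap, the leaky-vessel gene, was low in 5 of the 6 libraries. It measured 5.60, 4.18 and 10.9 CPM in Piezo Gel+US, from 105, 83 and 210 counts, against 3.01, 46.0 and 4.66 CPM in Gel+US, from 60, 829 and 93 counts. Gel+US replicate 2 was the highest, and of the other 2 Gel+US libraries replicate 1 lay below the Piezo Gel+US range and replicate 3 inside it. The highest and lowest libraries, both of Gel+US, were 15.3-fold apart, against 2.02-fold to 3.55-fold for the other 9 members. The log2 fold change was -1.38 with an interval of -3.86 to 1.10 (adjusted p = 0.994), and DESeq2 gave no p for this gene. Plvap came to 0.83 without Gel+US replicate 2, and with replicate 2 of both groups left out it was 1.10, a choice made after seeing the data. In that last fit Plvap was at an unadjusted p below 0.05, in the direction opposite to that of all 6 libraries, and was not called.

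**Figure D2:**
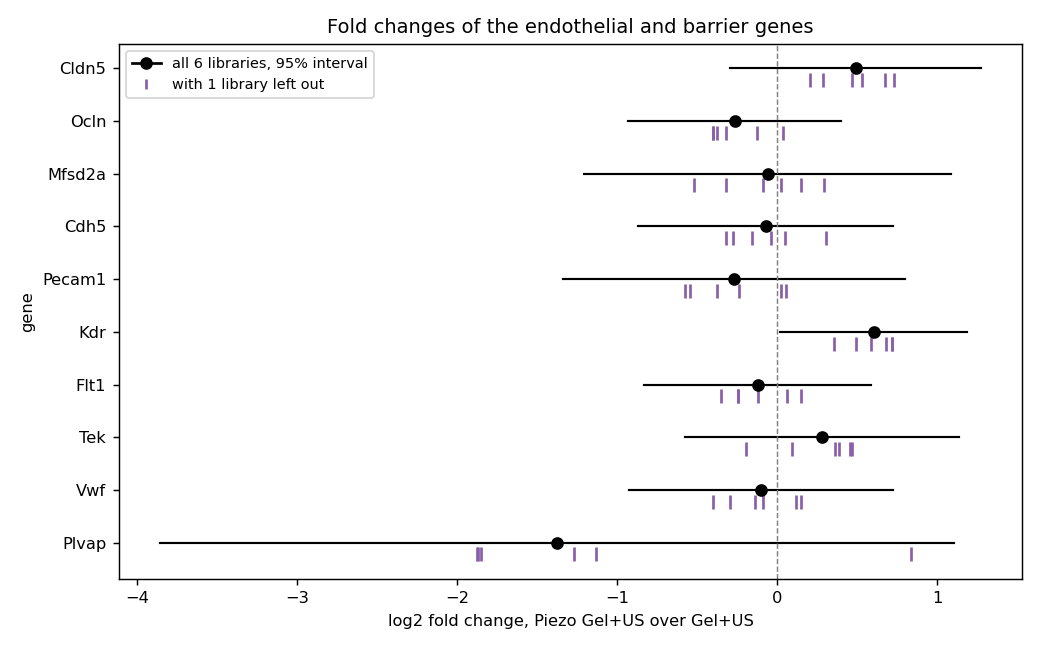
Log2 fold change of Piezo Gel+US over Gel+US for each gene (horizontal axis), with black points and lines for the fit of all 6 libraries and its 95% interval and purple ticks for the 6 fits that each leave out 1 library. The interval of Kdr alone lies above 0, from 0.018 to 1.19, and the ticks of Plvap run from -1.88 to 0.83.

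The members did not vary together as a block. Within Piezo Gel+US replicate 2, Cldn5, Kdr and Tek had their highest value of the 6 libraries while Pecam1, Flt1, Mfsd2a and Ocln had their lowest. On a log2 scale relative to the mean of each gene, Tek was at 0.84, Cldn5 at 0.73 and Kdr at 0.71 in that library, and Mfsd2a at -1.10, Pecam1 at -0.95 and Flt1 at -0.49. Gel+US replicate 3 held the lowest value of 4 members, namely Cldn5, Cdh5, Kdr and Tek, and the median member there was at -0.50. Gel+US replicate 1 was highest for Flt1, Vwf and Ocln, and Gel+US replicate 2 for Pecam1, Cdh5 and Plvap.

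**Figure D3:**
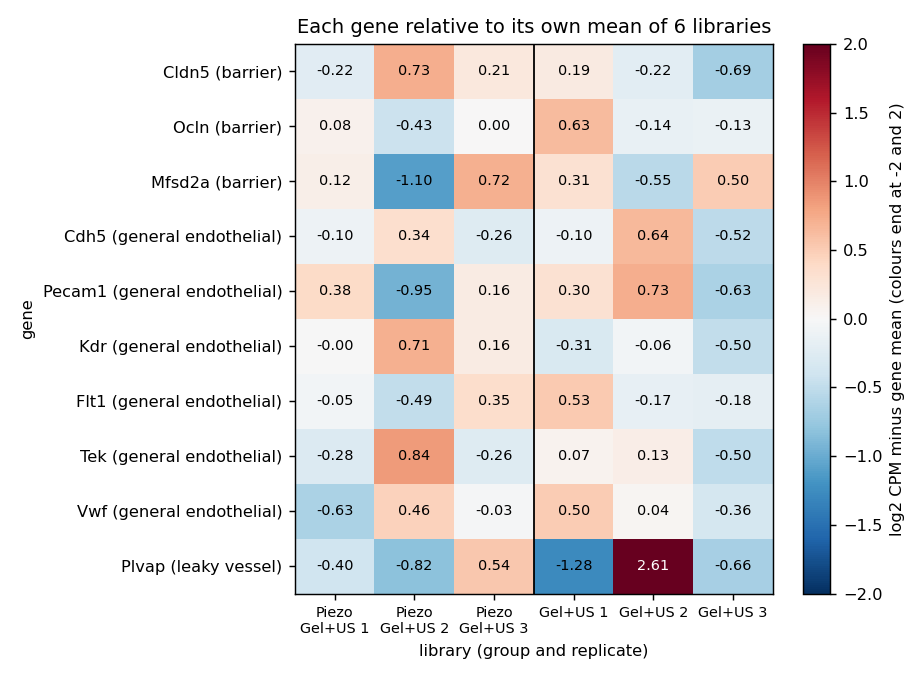
Log2 CPM of the 10 genes (rows) in the 6 libraries (columns, Piezo Gel+US left of the line), each gene after subtracting its mean over the libraries, with the value written in each cell. Piezo Gel+US replicate 2 holds both high values, 0.84 for Tek, and low ones, -1.10 for Mfsd2a, and the strongest value is 2.61 for Plvap in Gel+US replicate 2.

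Markers of other cells also varied between the libraries. The summed level of 9 Schwann cell markers, of 12 listed, was 71680 CPM in Piezo Gel+US replicate 2 and 8313 and 13880 CPM in the other Piezo Gel+US libraries, against 5342 to 7976 CPM in Gel+US. The 10 fibroblast markers summed to 1459 to 6237 CPM in Piezo Gel+US and 875.9 to 8026 CPM in Gel+US, in both groups highest in replicate 2. Neuron markers summed to 1863 to 7180 CPM in Piezo Gel+US and 2298 to 14280 CPM in Gel+US, lowest in replicate 2 of each group, and astrocyte markers to 1316 to 4143 CPM and 2830 to 4659 CPM in Piezo Gel+US and Gel+US. Cldn1, Cdh1 and Itgb4, genes of epithelium and of the perineurial sheath of nerves, were highest in Piezo Gel+US replicate 2, with Cldn1 at 89.9 CPM against 6.71 to 28.5 elsewhere. Other genes of the same list went another way: the keratin Krt8 had 7.60 CPM in Piezo Gel+US replicate 2 against 25.9 CPM in Gel+US replicate 2, its highest library, which was also the highest for Krt18 and Krt19, at no more than 1.83 CPM in any library. Cldn4 was lowest in Piezo Gel+US replicate 2, at 0.453 CPM, and Cldn3 and Epcam were at or near 0 in every library. The 9 perineurial and epithelial markers summed to 392.0 to 1755 CPM in Piezo Gel+US and 190.7 to 715.6 CPM in Gel+US, most of it from Itgb4, which Schwann cells also express. Piezo Gel+US replicate 2 thus held the highest Schwann cell sum as well as high Cldn5, Kdr and Tek and low Mfsd2a. Gel+US replicate 2 had the highest fibroblast sum. Relative to the mean of each gene on the log2 scale, Cldn5 was there at -0.22, Kdr at -0.056, Tek at 0.13 and Mfsd2a at -0.55. The part of other cells in those values was not tested. Pericyte markers, of cells that wrap capillaries, summed to 620.8 to 806.2 CPM in Piezo Gel+US and 516.2 to 851.2 CPM in Gel+US, and smooth muscle markers to 410.6 to 722.2 CPM and 433.4 to 836.2 CPM in Piezo Gel+US and Gel+US. Lymphatic endothelial markers summed to 279.8 to 602.8 CPM in Piezo Gel+US and 225.8 to 332.3 CPM in Gel+US, mostly from Reln, which neurons also express, and Lyve1 was between 3.16 and 16.9 CPM. Oligodendrocyte markers summed to 30740 to 52550 CPM in Piezo Gel+US and 27300 to 44120 CPM in Gel+US, and macrophage and microglia markers to 244.0 to 815.2 CPM and 405.7 to 913.7 CPM in Piezo Gel+US and Gel+US. The labelled spinal cord tissue thus carried its neuronal and glial markers in every library.

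Ratios of a pair of members within a library need no scaling between libraries, and 3 were compared as log2 ratios of counts. The ratio of Plvap to Cldn5, a leaky-vessel gene over a junction gene, was -5.33, -6.70 and -4.81 in Piezo Gel+US, against -6.63, -2.30 and -5.13 in Gel+US. Gel+US replicate 2 was the only library above -4.8, and the difference of the means was -0.93 (exact two-sided permutation p = 0.6, 0.9 after adjustment over the 3 ratios). The ratio of Cldn5 to Pecam1 was 2.00, 4.28 and 2.65 in Piezo Gel+US, against 2.48, 1.65 and 2.54 in Gel+US. It was highest in Piezo Gel+US replicate 2, and the difference of 0.75 had an exact p of 0.4 and an adjusted p of 0.9. The ratio of Mfsd2a to Pecam1 was 0.18, 0.28 and 0.99 in Piezo Gel+US, against 0.44, -0.85 and 1.57 in Gel+US, a difference of 0.098 with an exact p of 1.0. With 3 libraries a group the smallest p this test can give is 0.1.

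**Figure D4:**
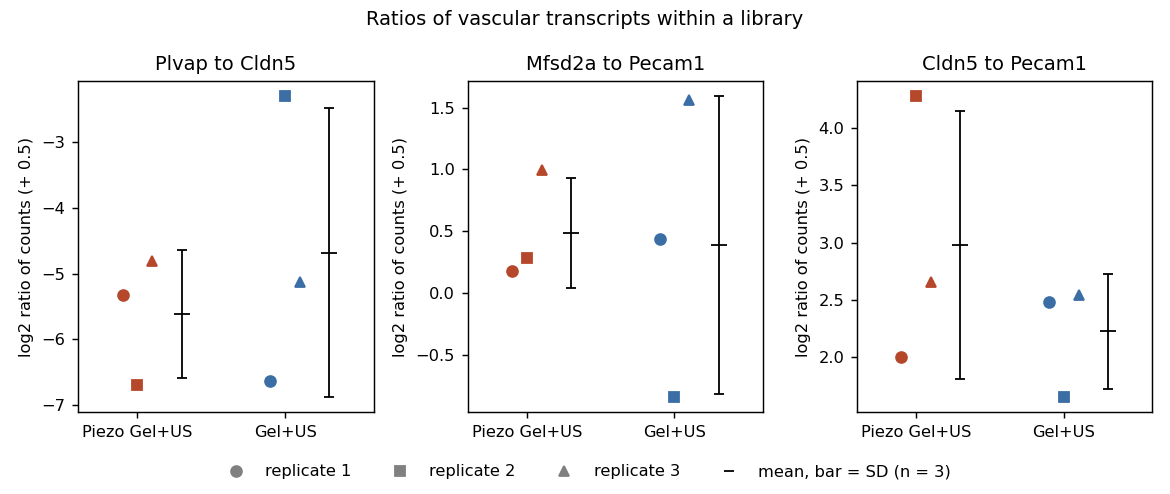
Log2 ratios of counts of a pair of genes within each library (vertical axes), with 0.5 added to each count, Piezo Gel+US left and Gel+US right and bars giving the mean ± SD (n = 3). In each panel the groups overlap and Gel+US replicate 2 is at an end of the range, with -2.30 for Plvap to Cldn5, -0.85 for Mfsd2a to Pecam1 and 1.65 for Cldn5 to Pecam1.

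Related barrier and vessel genes were read from the same fit as 6 lists of 123 entries, of which 117 were found and 114 tested. None of them was called, 55 had a fold change above 0 and 59 below it, and 2 were at an unadjusted p below 0.05, against 2.1% of all genes tested. For the direction counts of each list, 8044 of all 17066 genes tested were above 0 and 9022 below. Of 13 other tight junction genes tested, 9 were above 0 and 4 below (median log2 fold change 0.059). Jam3, a junctional adhesion molecule, averaged 108.1 ± 42.2 CPM in Piezo Gel+US and 72.1 ± 4.32 CPM in Gel+US (log2 fold change 0.59). Jam3 and Tjp1, a junction scaffold, were higher in each Piezo Gel+US library than in any Gel+US library, which held for 4.08% of all genes. Jam3 was picked by its p and Tjp1 after its values were seen, so that share does not measure how unusual they are. Tjp1 was at 403.7, 436.8 and 405.5 CPM in Piezo Gel+US against 398.4, 324.2 and 364.2 CPM in Gel+US. Jam2, of the same family as Jam3, went the other way. It measured 141.8, 67.7 and 108.2 CPM in Piezo Gel+US against 153.7, 136.8 and 136.3 CPM in Gel+US (log2 fold change -0.43). Without Piezo Gel+US replicate 2, Jam3 had a log2 fold change of 0.21.

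Of 20 barrier transporters listed, Abcb1a, Abcb1b, Abcg2 and Slco1a4 were not found by symbol. Among the 16 tested, 5 were above 0 and 11 below (median -0.074). Slc7a5, which carries large amino acids, averaged 181.0 ± 38.7 CPM in Piezo Gel+US and 149.5 ± 15.7 CPM in Gel+US, and Slco1c1, a thyroxine transporter, averaged 154.4 ± 15.7 CPM and 130.7 ± 28.5 CPM in Piezo Gel+US and Gel+US. The log2 fold change of Slc7a5 was 0.28 and came to 0.099 without Piezo Gel+US replicate 2. That of Slco1c1 was 0.24, with 0.13 when Gel+US replicate 2 was omitted and 0.43 when replicate 1 of that group was. Slc2a1, the glucose transporter of the barrier, measured 318.8, 327.3 and 517.3 CPM in Piezo Gel+US, against 516.4, 319.8 and 393.1 CPM in Gel+US. It was added after its values were seen. In the list of the Wnt pathway and factors that induce the barrier, 13 of 20 were above 0 and 7 below (median 0.098). Axin2, a target gene of that pathway, had a log2 fold change of 0.36, which was 0.18 when Gel+US replicate 3 was omitted and 0.55 when replicate 2 of that group was, and Fzd4, the receptor for norrin, of -0.46.

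Of the 31 other general endothelial genes tested, 14 were above 0 and 17 below, with a median of -0.021, the same as for all genes to 3 decimals. Ecscr, an endothelial surface protein, measured 5.12, 39.3 and 11.7 CPM in Piezo Gel+US, against 4.01, 7.50 and 5.16 CPM in Gel+US. Its log2 fold change of 1.75 (95% interval 0.015 to 3.49) had an unadjusted p of 0.0485 and came to 0.59 without Piezo Gel+US replicate 2. Slco2a1, a prostaglandin transporter, measured 1.28, 7.29 and 3.73 CPM in Piezo Gel+US, against 11.4, 15.7 and 5.81 CPM in Gel+US. Its log2 fold change was -1.41 (95% interval -2.98 to 0.15), and -2.13 without Piezo Gel+US replicate 2.

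Of the 18 VEGF and angiopoietin ligands, co-receptors and related genes, 4 were above 0 and 14 below (median -0.21). Pgf, placental growth factor, a ligand of Flt1, measured 10.6, 17.5 and 10.9 CPM in Piezo Gel+US, against 17.4, 30.5 and 21.1 CPM in Gel+US. The groups overlapped by a narrow margin, 17.5 in Piezo Gel+US against 17.4 in Gel+US. Pgf had a log2 fold change of -0.82 (95% interval -1.56 to -0.086) with an unadjusted p of 0.0335 and an adjusted p of 0.994. Vegfa, the ligand of both receptors, averaged 68.0 ± 19.5 CPM in Piezo Gel+US and 80.3 ± 14.7 CPM in Gel+US (log2 fold change -0.24). When Piezo Gel+US replicate 2 was left out the Vegfa value was -0.031, when Gel+US replicate 1 was left out it was -0.081, and leaving out Piezo Gel+US replicate 1 gave -0.43. Of the ligands of Tek, Angpt1, which stabilises vessels, measured 7.47, 2.77 and 6.31 CPM in Piezo Gel+US, against 8.22, 21.8 and 5.96 CPM in Gel+US. Angpt2, which can destabilise them, averaged 12.9 ± 8.22 and 12.9 ± 7.68 CPM in Piezo Gel+US and Gel+US. Angpt1 had a log2 fold change of -1.12 with all libraries and -0.37 without Gel+US replicate 2.

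Of 16 vessel permeability and activation genes tested, 10 were above 0 and 6 below (median 0.24). Cav2, a caveolin, measured 57.3, 209.8 and 80.7 CPM in Piezo Gel+US, against 67.5, 57.3 and 74.3 CPM in Gel+US, and its log2 fold change of 0.80 came to 0.049 without Piezo Gel+US replicate 2. Ednrb, the endothelin B receptor, which astrocytes also express, averaged 101.5 ± 50.6 CPM in Piezo Gel+US and 148.5 ± 24.8 CPM in Gel+US (log2 fold change -0.55). Leaving out Piezo Gel+US replicate 2 brought Ednrb to -0.23, while leaving out replicate 1 of the same group brought it to -0.97. The selectins Sele and Selp, which catch leukocytes on inflamed endothelium, were below the low-count filter and had 0 counts in at least 1 library.

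**Figure D5:**
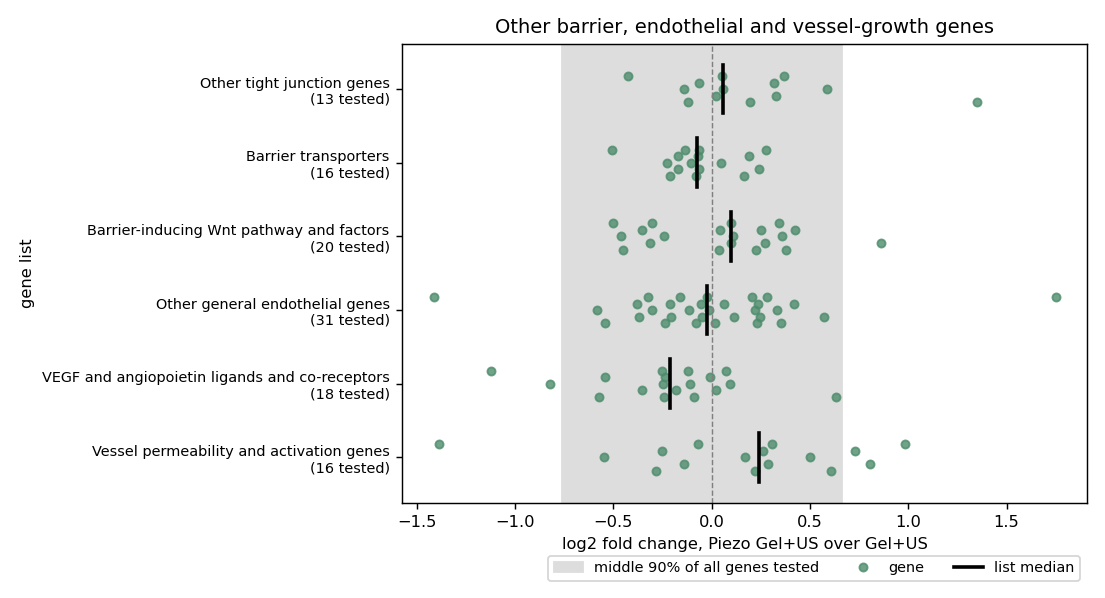
Log2 fold change of Piezo Gel+US over Gel+US (horizontal axis) for each tested gene of 6 lists (rows), with the list median as a black bar and the middle 90% of all genes tested in grey. The list medians lie between -0.21 and 0.24, within the grey band.

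The genes whose profile over the 6 libraries was most like that of Cldn5, Cdh5 or Plvap were taken from 12948 genes by the root mean square difference of centred log2 CPM. They were chosen for that likeness, so the values are a description. For Cldn5 they were Rad52, a DNA repair gene (0.104), Lama1, a laminin chain of basement membranes (0.104), and Znf691 (0.116), where the median over all genes was 0.525. For Cdh5 they were Ikbip (0.0586), Psme1, a proteasome activator (0.0675), and Tmed3 (0.0724), where that median was 0.482. For Plvap they were Scube3 (0.503), Calml4 (0.519) and Pparg, a nuclear receptor of fat metabolism (0.571), where that median was 1.335. The genes nearest to Plvap thus lay farther from it than those of Cldn5 and Cdh5 did, and so did the median gene.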

How the data were processed

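RNA-seq of 3 Piezo Gel+US and 3 Gel+US lesion-centre libraries was analysed, grouped by the treatment label. Per the labels' protocols, RNA was extracted with TRIzol, selected with oligo(dT) beads and made into strand-specific libraries. The authors deposited raw counts per gene, whole numbers without normalisation. Per the submitters' processing notes, the tools were DESeq2 1.20.0, featureCounts 1.5.0-p3, HISAT2 2.0.5 and fastp 0.19.7, with no role or setting stated. No label or processing note names the build, and 0 of the count table's gene identifiers occur in the RefSeq table of GRCr8. The reference thus appears not to be that Norway rat annotation, and its positions were not used. Which rat species or build it represents was not established. The levels per kilobase rest on its gene lengths, and listed genes not found may reflect its symbols. Library totals were 17212653 to 21436820 counts, and counting error was small beside the spread between libraries.

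Genes were tested with edgeR 4.0.16 in R 4.3.3 (TMM factors, filterByExpr with a minimum count of 10 and a minimum total of 15, robust quasi-likelihood F test, group as the only term), with Benjamini-Hochberg adjustment over 17066 genes and a threshold of 0.05. Intervals come from that fit, and fold changes are Piezo Gel+US over Gel+US. The common biological coefficient of variation was 0.382. The script was tested on simulated data with changes larger than that of any member. That test does not show what the fit recovers at changes of the members' size. Alternatives were RLE size factors, DESeq2 1.42.0, no filter, a replicate block and leaving out libraries. Ratios used counts plus 0.5 and exact permutation tests (SciPy 1.17.1). Log2 CPM used a prior count of 2.

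The groups share replicate numbers. Deviations from group means correlated at 0.253, 0.296 and 0.251 between libraries numbered 1, 2 and 3, each above 0.1, the cut set for possible pairing. The main fit, its intervals and the main ratio tests stayed unpaired, and the replicate block was an alternative. Of the 6 pairs of unlike number, 1 was also above 0.1, Piezo Gel+US replicate 3 with Gel+US replicate 1 at 0.198. The pairing comes from the data alone, since no label gives a shared litter or day.

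Named genes are all members, the 2 genes of lowest p in each related list, Vegfa, Angpt1 and Angpt2, and the 3 nearest genes of Cldn5, Cdh5 and Plvap. A gene that this rule names is not reported here. Members and lists were chosen with earlier results of these data known. Of 98 entries in 11 lists of other cells, 89 were found.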

Additional observations from a re-analysis of the deposited data

How the results depend on the processing

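No gene and no member was called under any of the 11 alternatives, RLE factors, DESeq2, no filter, the replicate block, the fits without 1 library and the one without replicate 2 of both groups. With the replicate block the median log2 fold change of members was -0.12, and it changed no call. Genes at an unadjusted p below 0.05 by the edgeR test numbered 986 with that block, against 359 in the main fit. The log2 fold change with the block was 0.58 for Kdr (adjusted p = 0.855) and -0.26 for Plvap. Kdr stayed at an unadjusted p below 0.05 with RLE factors, DESeq2, no filter, the block and the fits without Piezo Gel+US replicate 1, Gel+US replicate 2 or both libraries numbered 2, and not without Piezo Gel+US replicate 2 or 3 or Gel+US replicate 1 or 3.

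With 1 library left out, 2 of 10 members kept their direction, Cldn5 (0.20 to 0.73) and Kdr (0.35 to 0.72). The others ranged from -0.32 to 0.30 for Cdh5, -0.35 to 0.15 for Flt1, -0.52 to 0.29 for Mfsd2a, -0.40 to 0.038 for Ocln, -0.58 to 0.054 for Pecam1, -1.88 to 0.83 for Plvap, -0.20 to 0.47 for Tek and -0.40 to 0.15 for Vwf, and Angpt2 from -0.53 to 0.56. The Plvap to Cldn5 difference ranged from -1.90 to 0.26, that of Mfsd2a to Pecam1 from -0.52 to 0.69 and that of Cldn5 to Pecam1 from 0.10 to 1.24. Exact sign-flip tests of the 3 same-number pairs, whose smallest p is 0.25, gave 1.0, 1.0 and 0.75 for these ratios in that order. The members' median ranged from -0.27 to 0.18. Without replicate 2 of both groups, chosen after seeing the data, directions turned for Cdh5 (0.12), Mfsd2a (0.042), Pecam1 (0.36), Plvap (1.10, at an unadjusted p below 0.05), Tek (-0.075), Angpt2 (0.067) and Cav2 (-0.042). The cause was not tested.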
